A study of Mus musculus with 14 samples.

Results

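The genes described here are 9 that mark or maintain the stem and progenitor cells of the intestinal crypt: Lgr5, Olfm4, Ascl2, Smoc2, Prom1, Sox9, Cd44, Msi1 and Bmi1. They were taken from the deposited array table as the rows whose platform annotation gives exactly 1 of these symbols, and each gene had 1 such row. They are 9 of the 19938 genes tested. RNA of mouse proximal duodenum was read on Affymetrix Mouse Gene 1.0 ST arrays, and values are log2 array signal, on which a difference of 1 is a 2-fold change. The study compared 3 groups, all on a mixed background of 129S7/SvEv and C57/BL6. The tumor group held duodenal tumors of 6 mice of genotype Lrig1-CreERT2/CreERT2 (Lrig1-/-), with the CreERT2 recombinase gene placed in each Lrig1 allele. The adjacent group held normal tissue beside the tumor in 5 of the same 6 mice. The wildtype group held normal duodenum of 3 other mice, described as age matched, with no age given. The labels name neither a floxed allele nor a Cre-activating drug. Adjacent and tumor tissue share the genotype, so a difference between them does not measure the loss of Lrig1. The 9 genes are described by their values and tests gene by gene, and no score was made of them.

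Stem cells at the base of the crypt divide under Wnt and Notch signals and feed a zone of transit-amplifying progenitors, whose daughters mature as they move onto the villus. Lgr5, a receptor for R-spondins that raises the cell's response to Wnt, is the best known marker of the crypt base stem cell. Olfm4, a secreted glycoprotein, Ascl2, a Wnt-driven transcription factor, and Smoc2, a matrix-associated calcium-binding protein, are enriched in the same cell. Prom1 (CD133), a membrane protein of cell protrusions, Sox9, a transcription factor, and Cd44, a hyaluronan receptor and Wnt target, reach further up into the progenitor zone. Msi1, an RNA-binding protein, and Bmi1, a subunit of Polycomb repressive complex 1, have been used to mark crypt progenitors and a reserve stem cell.

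Markers of other cell types set several arrays apart. Digestive enzyme genes of the pancreatic acinus, 10 in the list, averaged 13.47 and 14.21 in adjacent replicates 1 and 2, and 14.02 and 13.65 in wildtype replicates 1 and 3. Elsewhere their average was 7.46 to 10.12 in tumors, 7.63 to 7.66 in adjacent tissue and 7.80 in wildtype replicate 2. Mucus-cell genes of the gastric pit averaged 12.63 to 13.90 in tumors, and wildtype replicate 1, at 13.48, fell inside that range, while replicates 2 and 3 stood at 6.95 and 7.93. The labels call the normal tissue epithelium, yet the mean of 8 smooth muscle genes was 8.35 to 10.97 in tumors, 9.39 to 10.52 in adjacent tissue and 10.02 to 10.93 in wildtype. Lrig1, read as a check on the labels, was 8.07 ± 0.32 in tumors (SD, n = 6), 7.20 ± 0.17 in adjacent tissue (n = 5) and 9.03 ± 0.71 in wildtype (n = 3). Adjacent tissue lay below all wildtype arrays, while wildtype replicate 3, at 8.22, fell inside the tumors' range of 7.65 to 8.54. Whether the probes lie in the disrupted part of the gene is not stated, so this signal is no measure of remaining protein.

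The first comparison set the 6 tumors against the 5 adjacent samples, in a fit of all 14 arrays with mouse as a random block. Tumor replicate 1 had no adjacent sample of its mouse. The 9 genes split: Cd44, Prom1 and Sox9 rose 7.58-fold, 5.50-fold and 4.83-fold, and Lgr5 and Olfm4 fell 2.65-fold and 2.04-fold. Ascl2, Smoc2 and Bmi1 rose by smaller amounts, and Msi1 did not pass the test. In all, 8 of the 9 genes passed an adjusted p of 0.05 in limma, 6 higher and 2 lower. Over all genes 31.7% passed, 19.1% higher and 12.6% lower. The balance of rises and falls over all genes depended on scaling. It was 3804 higher and 2509 lower as deposited, and 3354 and 3098 with quantile normalization. With array medians equalized it was 2944 higher and 3448 lower. Of the 9, 5 also changed 2-fold or more, as did 6.37% of all genes. Tumor and adjacent tissue did not overlap for the same 5, against 17.2% of all genes (10.3% higher, 6.84% lower). In 7 of the 9, 5 higher and 2 lower, every one of the 5 mice moved the same way, as in 36.2% of all genes (22.9% higher, 13.3% lower). The median log2 difference over all genes was 0.04. These are bulk samples, in which fewer cells of a type and less RNA per cell cannot be told apart.

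**Figure D1:**
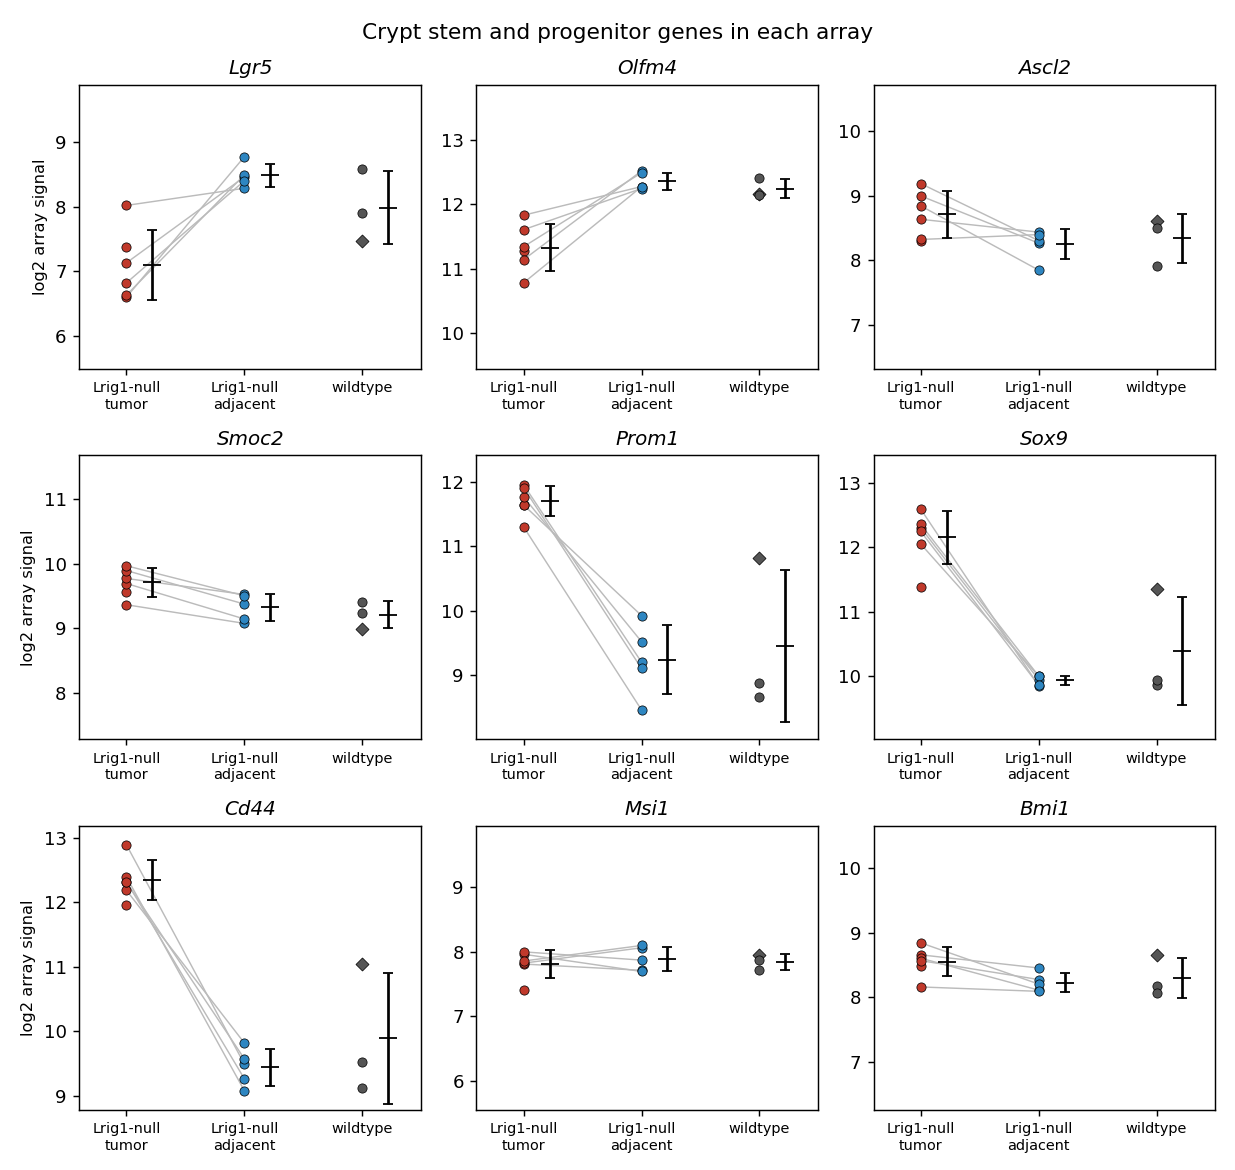
Log2 array signal (y axis, windows of equal height in log2 units in every panel) of each of the 9 genes in 6 tumors, 5 adjacent samples and 3 wildtype samples. Points are arrays, grey lines join both tissues of 1 mouse, bars are mean ± SD, and the diamond is wildtype replicate 1. For Cd44, Prom1 and Sox9 every tumor lies above every adjacent and wildtype array, and for Lgr5 and Olfm4 every tumor lies below every adjacent array.

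Lgr5 ran from 6.60 to 8.02 in tumors with a median of 6.98 (n = 6), against 8.46, 8.29, 8.77, 8.49 and 8.40 in adjacent replicates 1 to 5. The groups did not overlap. The log2 difference was -1.41 ± 0.22 (SE, adjusted p = 0.000188), and tumor lay below adjacent tissue in 5 of 5 mice. The SD was 0.54 in tumors, 0.18 in adjacent tissue and 0.56 in wildtype. The highest tumor value was that of tumor replicate 3, which differed from its own adjacent tissue by -0.27, while tumor replicate 4 was at the other end with -2.17. By size, 1.88% of all genes had a difference as low as that of Lgr5.

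Olfm4 ran from 10.78 to 11.83 in tumors with a median of 11.31, against 12.28, 12.25, 12.52, 12.27 and 12.49 in adjacent replicates 1 to 5. Again no tumor reached the lowest adjacent value. The log2 difference was -1.03 ± 0.13 (adjusted p = 4.28e-05), lower in 5 of 5 mice. Leaving out 1 array gave -1.139 to -0.914, on both sides of a 2-fold change. For Olfm4, 3.14% of all genes had a difference as low.

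The other members enriched in crypt base stem cells, Ascl2 and Smoc2, rose by less than either of these fell. Ascl2 ran from 8.29 to 9.19 in tumors, against 7.85 to 8.43 in adjacent tissue, so the groups overlapped. Its log2 difference was 0.49 ± 0.16 (adjusted p = 0.0276), higher in 4 of 5 mice. Smoc2 ran from 9.37 to 9.97 in tumors, against 9.08 to 9.53 in adjacent tissue, with a log2 difference of 0.39 ± 0.10 (adjusted p = 0.00612), higher in 5 of 5 mice. Smoc2 is also made by stromal cells, and 7 of 12 fibroblast and matrix genes rose in the same comparison (list mean 8.71 to 9.19 in tumors, 8.305 to 8.714 in adjacent tissue). Their part in the Smoc2 value was not tested. The Smoc2 call ended against adjacent arrays without acinar transcripts (0.30 ± 0.11, adjusted p = 0.0655).

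Cd44 ran from 11.96 to 12.89 in tumors with a median of 12.32, against 9.82, 9.27, 9.49, 9.08 and 9.57 in adjacent replicates 1 to 5. The gap between the lowest tumor and the highest adjacent array was wider than the spread within either group. The log2 difference was 2.92 ± 0.23 (adjusted p = 1.12e-06), the 78th largest rise of 19938 genes. Leukocytes also carry Cd44, and 4 of 5 genes shared by blood-derived cells fell, with a list mean of 7.70 to 8.515 in tumors and 8.85 to 9.28 in adjacent tissue. Ptprc (CD45), present on all nucleated blood cells, changed by -1.20 ± 0.13 (adjusted p = 8.16e-06). Mast cell genes went the other way, with 7 of 10 higher and a list mean of 7.75 to 8.61 in tumors and 6.16 to 6.99 in adjacent tissue. The part of leukocytes in the Cd44 value was not tested.

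Prom1 ran from 11.30 to 11.96 in tumors with a median of 11.70, against 9.93, 9.52, 9.21, 9.11 and 8.47 in adjacent replicates 1 to 5. All tumors lay above all adjacent samples. The log2 difference was 2.46 ± 0.28 (adjusted p = 1.16e-05), the 113th largest rise. Here the normal tissue was the more variable, with an SD of 0.24 in tumors and 0.54 in adjacent tissue. The highest adjacent values were those of replicates 1 and 2, the pair with acinar transcripts, and the difference was 1.98 ± 0.39 against this pair alone (adjusted p = 0.0103) and 2.78 ± 0.14 against the adjacent arrays without acinar transcripts.

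Sox9 ran from 11.39 to 12.59 in tumors with a median of 12.28, against 10.01, 9.95, 10.01, 9.86 and 9.87 in adjacent replicates 1 to 5. Tumors had an SD of 0.41 with tumor replicate 1 the lowest, while adjacent samples were nearly level, with an SD of 0.073. The log2 difference was 2.27 ± 0.21 (adjusted p = 2.69e-06), the 138th largest rise. Cd44, Prom1 and Sox9 were each higher in 5 of 5 mice.

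Prom1 and Sox9 are also used as markers of pancreatic and biliary ducts, and of gland cells. In the list of duct genes 4 of 6 rose and 0 fell, with a list mean of 10.3 to 10.7 in tumors and 9.38 to 9.54 in adjacent tissue, and the keratin Krt7 rose by 2.79 ± 0.28 (adjusted p = 5.86e-06). Of the genes of Brunner glands and gastric mucous neck cells 6 of 7 rose, with a list mean of 12.5 to 13.5 in tumors and 7.93 to 9.76 in adjacent tissue. All 8 gastric pit genes rose, with a list mean of 12.6 to 13.9 in tumors and 6.41 to 8.81 in adjacent tissue. The part of these cells in the values of Prom1, Sox9 and Cd44 was not tested.

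Msi1 and Bmi1 had the smallest differences. Bmi1 ran from 8.16 to 8.84 in tumors, against 8.09 to 8.45 in adjacent tissue, with a log2 difference of 0.33 ± 0.11 (adjusted p = 0.0275), higher in 5 of 5 mice. Msi1 ran from 7.402 to 7.997 in tumors, against 7.69 to 8.10 in adjacent tissue. Its log2 difference was -0.05 ± 0.10 (adjusted p = 0.77), with a 95% interval of -0.26 to 0.16, and it was higher in 3 of 5 mice and lower in 2.

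The calls of Ascl2 and Bmi1 ended under many settings. Ascl2 passed in 16 of 28 alternative settings and Bmi1 in 16 of 28. Without the mouse as a block their adjusted p was 0.0791 and 0.0838. Leaving out 1 of several arrays also ended both calls, for Ascl2 tumor replicate 2, 3 or 5 or adjacent replicate 1, 2 or 4 (adjusted p between 0.0605 and 0.0735) and for Bmi1 tumor replicate 2, 4 or 5 or adjacent replicate 2, 3, 4 or 5 (between 0.0521 and 0.0699).

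**Figure D2:**
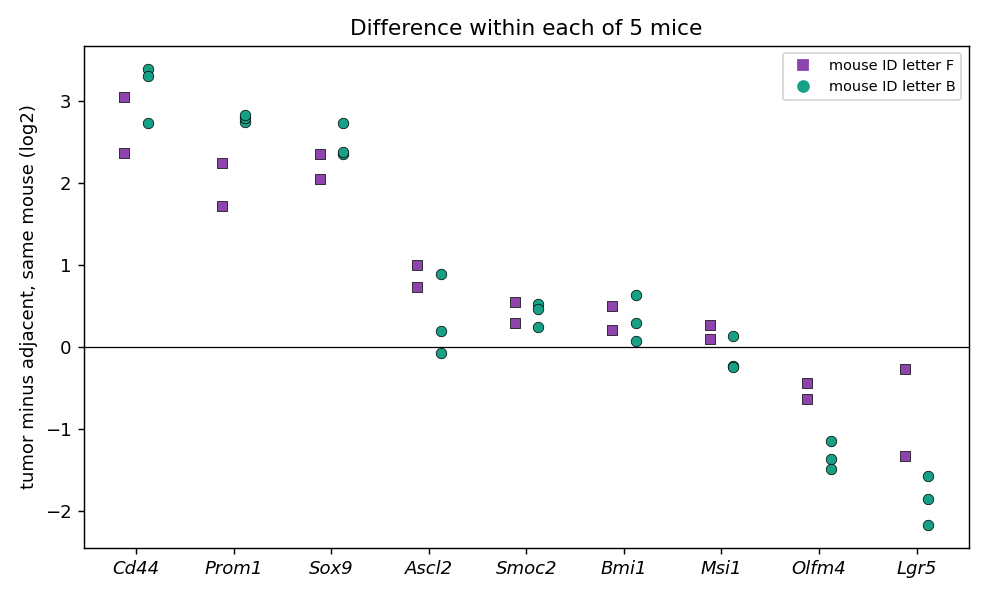
Tumor minus adjacent tissue of the same mouse (y axis, log2 units) for each of the 9 genes in 5 mice. Squares are the 2 mice whose ID begins with F and circles the 3 whose ID begins with B. The difference for Cd44, Prom1 and Sox9 is above 1.7 in every mouse, and for Olfm4 and Lgr5 it is below 0 in every mouse and nearer 0 in the F mice.

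The size of the fall differed from mouse to mouse. Lgr5 differed by -1.33 and -0.27 in the 2 mice whose ID begins with F, and by -2.17, -1.86 and -1.58 in the 3 whose ID begins with B. Olfm4 differed by -0.44 and -0.64 in the F mice, and by -1.38, -1.49 and -1.15 in the B mice. The labels do not say what the letter stands for. The adjacent samples of the F mice are the pair with acinar transcripts, so letter and acinar content of adjacent tissue cannot be told apart. In the paired tumors Lgr5 was 7.13 and 8.02 (F mice) and 6.60, 6.63 and 6.82 (B mice). Olfm4 in these tumors was 11.83 and 11.61 (F) and 11.14, 10.78 and 11.34 (B). Their acinar list mean was 7.83 and 8.77 (F) and 7.46, 9.155 and 7.74 (B). The unpaired F tumor, tumor replicate 1, had Lgr5 at 7.37, Olfm4 at 11.28 and an acinar list mean of 10.12. Its Olfm4 value lay inside the range of the B tumors. Adjacent Lgr5 was 8.46 and 8.29 (F) and 8.77, 8.49 and 8.40 (B). The source of the difference between letters was not tested. The fits by letter that follow also used wildtype arrays and, as an F tumor, tumor replicate 1. They are therefore not limited to the paired mice. In a fit that let the difference vary with the letter, chosen after these values were seen, F minus B was 1.03 ± 0.34 for Lgr5 (unadjusted p = 0.0101) and 0.70 ± 0.20 for Olfm4 (unadjusted p = 0.00369), and neither passed adjustment over all genes (adjusted p = 0.361 and 0.321 in limma). Within F mice alone the falls of Lgr5 (-0.85 ± 0.25, adjusted p = 0.0915) and Olfm4 (-0.66 ± 0.16, adjusted p = 0.059) did not pass, and within B mice alone they did.

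Upstream sequence was at hand for 3 of the 5 genes with a change of at least 2-fold, and it is shown because Cd44 and Prom1 rose while Olfm4 fell. Each line gives the 250 bases before the start site, on the gene's own strand, from RefSeq on GRCm38.p6. They are Cd44 at chr2:102901666-102901915 (minus strand), Prom1 at chr5:44101737-44101986 (minus strand, the farther upstream of 2 listed starts) and Olfm4 at chr14:80000052-80000301 (plus strand).
Cd44: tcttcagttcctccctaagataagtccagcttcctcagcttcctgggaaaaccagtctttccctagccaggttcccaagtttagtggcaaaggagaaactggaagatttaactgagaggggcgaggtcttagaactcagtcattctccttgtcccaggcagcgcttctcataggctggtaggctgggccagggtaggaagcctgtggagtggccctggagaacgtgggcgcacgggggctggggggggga
Prom1: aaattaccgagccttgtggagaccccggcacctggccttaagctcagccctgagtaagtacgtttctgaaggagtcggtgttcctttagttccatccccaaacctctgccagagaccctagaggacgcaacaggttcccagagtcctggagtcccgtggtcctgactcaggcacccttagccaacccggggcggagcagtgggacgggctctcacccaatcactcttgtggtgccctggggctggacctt
Olfm4: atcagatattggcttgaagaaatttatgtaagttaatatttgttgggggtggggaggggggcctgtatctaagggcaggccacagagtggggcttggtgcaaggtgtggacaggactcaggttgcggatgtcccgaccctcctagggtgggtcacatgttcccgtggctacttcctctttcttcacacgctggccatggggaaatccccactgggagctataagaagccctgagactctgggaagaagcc
The windows from 250 bases before to 50 after the start were searched on both strands for the TCF/LEF core, spelled CTTTGAA or CTTTGAT, or else as CTTTGTA or CTTTGTT, and for the E-box CAGCTG. TCF/LEF factors carry the Wnt signal to genes, and Ascl2 belongs to the factors that bind such an E-box. The 6 windows of the 5 members in the table (Cd44, Prom1, Olfm4, Ascl2 and Bmi1) held 0 matches to either, so no letters are in capitals. Of all 32851 windows listed, a TCF/LEF core was held by 16.9% and the E-box by 16.3%. No match says only that these letters are not in these windows.

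The second comparison set tumors against duodenum with intact Lrig1. These groups differ both in genotype and in being tumor, which the design cannot separate. Cd44, Prom1 and Sox9 were higher in tumors by 5.46-fold, 4.75-fold and 3.41-fold, Smoc2 was higher by 1.41-fold and Olfm4 lower by 1.88-fold. These 5 of the 9 genes passed, 4 higher and 1 lower, where 14.1% of all genes passed, 9.65% higher and 4.48% lower. The tumors are the same 6 as in the first comparison, so these differences are not independent of those. Of the 9, 3 also changed 2-fold or more, as did 3.9% of all genes. Groups did not overlap for 4 of the 9, 3 higher and 1 lower, against 13.6% of all genes (8.53% higher, 5.04% lower).

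Cd44 was 12.34 ± 0.31 in tumors (SD, n = 6) and 11.04, 9.12 and 9.52 in wildtype replicates 1 to 3, a log2 difference of 2.45 ± 0.33 (SE, adjusted p = 0.000549). Prom1 was 11.70 ± 0.24 in tumors and 10.81, 8.88 and 8.67 in wildtype replicates 1 to 3 (2.25 ± 0.39, adjusted p = 0.00226). Sox9 was 12.16 ± 0.41 in tumors and 11.36, 9.86 and 9.95 in wildtype replicates 1 to 3 (1.77 ± 0.29, adjusted p = 0.00176). For each of these 3 genes wildtype replicate 1 lay between the tumors and the other wildtype arrays, and the groups did not overlap. For Sox9 the gap was narrow, with the lowest tumor at 11.39 and this array at 11.36. That array is also the one with a gastric pit list mean inside the tumors' range. Its Brunner gland and mucous neck mean, 12.565, lay inside the tumors' 12.457 to 13.542, with wildtype replicates 2 and 3 at 8.04 and 9.24. Its goblet (13.14) and mast cell (8.02) means did so too. Its duct mean was 10.20, against 9.40 and 9.53 in replicates 2 and 3. Its enterocyte mean, 12.19, lay above the tumors' 10.59 to 11.11. It was below the 13.50 and 13.13 of wildtype replicates 2 and 3 and the 12.865 to 13.631 of adjacent tissue. The part of these cells in its values was not tested. Without wildtype replicate 1 the differences were 3.02 ± 0.23 for Cd44, 2.93 ± 0.28 for Prom1 and 2.25 ± 0.23 for Sox9. Within mice whose ID begins with F, where this array is the only wildtype sample, they were 1.11 for Cd44, 0.87 for Prom1 and 0.56 for Sox9, and none passed (adjusted p = 0.364, 0.359 and 0.741).

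Olfm4 was 11.33 ± 0.37 in tumors and 12.17, 12.41 and 12.15 in wildtype replicates 1 to 3, with no overlap. The log2 difference was -0.91 ± 0.19 (adjusted p = 0.00626), and -0.95 ± 0.22 without wildtype replicate 1. Lgr5 was 7.09 ± 0.54 in tumors and 7.48, 8.59 and 7.90 in wildtype replicates 1 to 3, so the groups overlapped. Its difference of -0.89 ± 0.31 did not pass (adjusted p = 0.072). It passed in 6 of 27 alternative settings, among them without wildtype replicate 1 (-1.15 ± 0.34, adjusted p = 0.0253) and without tumor replicate 3 (-1.096 ± 0.24, adjusted p = 0.0106). It did not pass without wildtype replicate 2 (-0.59 ± 0.33, adjusted p = 0.386) or replicate 3 (-0.935 ± 0.37, adjusted p = 0.168).

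Smoc2 ran from 9.37 to 9.97 in tumors and from 8.99 to 9.41 in wildtype (0.50 ± 0.14, adjusted p = 0.0272). It passed in 18 of 27 alternative settings, and missed under quantile normalization (adjusted p = 0.16), equal medians (0.0664), array weights (0.0657) and a fit of the 2 groups alone (0.0628). Its call also ended without wildtype replicate 1 (adjusted p = 0.0864) or replicate 3 (adjusted p = 0.0917), as that of Olfm4 did without wildtype replicate 2 (adjusted p = 0.0518). Against wildtype arrays with acinar transcripts alone, Smoc2 (0.60 ± 0.16, adjusted p = 0.0822), Sox9 (adjusted p = 0.0552) and Olfm4 (adjusted p = 0.0851) missed the threshold. Against the only wildtype array without acinar transcripts the Smoc2 difference was 0.30. Ascl2 (0.38 ± 0.22), Bmi1 (0.25 ± 0.15) and Msi1 (-0.04 ± 0.14) did not pass, with 95% intervals of -0.10 to 0.85, -0.07 to 0.57 and -0.33 to 0.26.

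**Figure D3:**
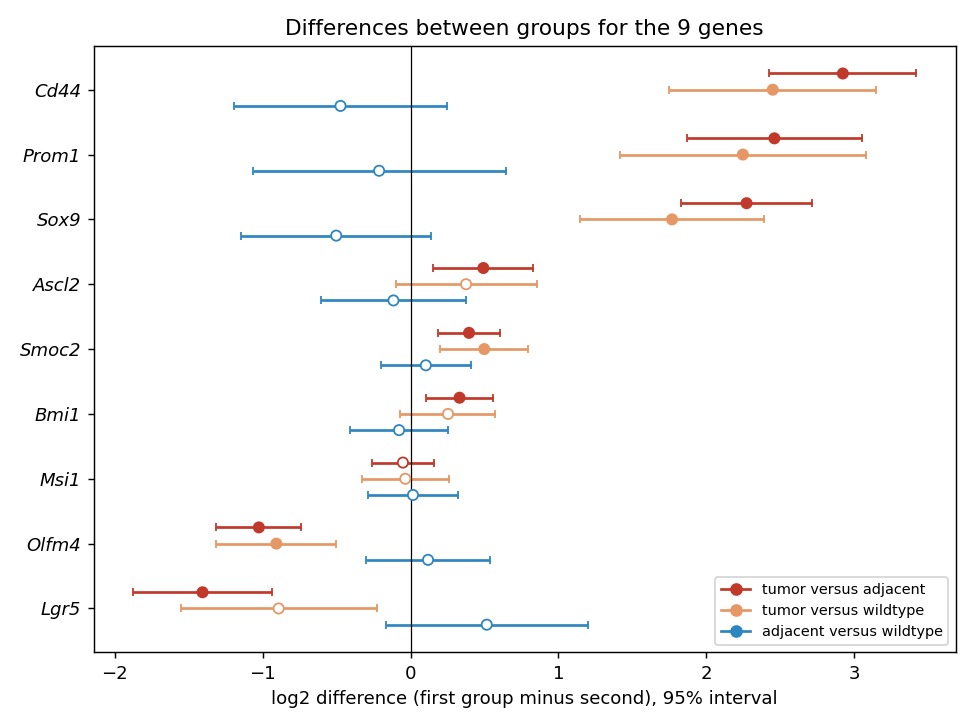
Log2 difference (x axis, first group minus second, with its 95% interval from the limma fit) of the 9 genes in 3 comparisons. Filled points passed an adjusted p of 0.05 over all genes. Cd44, Prom1 and Sox9 stand at 1.77 to 2.92 in both comparisons of tumors, and no gene has a filled point for adjacent tissue against wildtype.

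The third comparison set Lrig1-null tissue beside a tumor against wildtype, the one that bears on the genotype. Its null tissue came from tumor-bearing mice, so genotype and nearness to a tumor cannot be told apart. None of the 9 genes passed, and 0% of all genes passed in limma, while 559 genes (2.8%) had an unadjusted p below 0.05. With array weights 1691 of all genes and 0 of the 9 passed. The groups overlapped for all 9 genes, and did not for 2.12% of all genes (0.948% higher, 1.17% lower). The smallest unadjusted p among the 9 was 0.115, for Sox9. The intervals leave room for sizeable differences. Lgr5 was 8.48 ± 0.18 in adjacent tissue (n = 5) and 7.99 ± 0.56 in wildtype (n = 3), a log2 difference of 0.51 ± 0.32 with a 95% interval of -0.17 to 1.198. Olfm4 was 12.36 ± 0.13 in adjacent tissue and 12.24 ± 0.15 in wildtype (0.12 ± 0.20, interval -0.30 to 0.54).

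Sox9 was 9.94 ± 0.07 in adjacent tissue and 10.39 ± 0.84 in wildtype, a difference of -0.50 ± 0.30. Cd44 was 9.45 ± 0.28 in adjacent tissue and 9.90 ± 1.01 in wildtype (-0.47 ± 0.34), and Prom1 was 9.25 ± 0.54 in adjacent tissue and 9.45 ± 1.18 in wildtype (-0.21 ± 0.40). For each of these 3 genes wildtype replicate 1 was the highest of its group. Without it the differences were -0.01 for Sox9, 0.10 for Cd44 and 0.47 for Prom1, and none passed. Ascl2, Smoc2, Msi1 and Bmi1 had differences between -0.12 and 0.10.

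Other genes of the crypt were taken from 5 lists, and in tumors against adjacent tissue their counts stand beside 19.1% higher and 12.6% lower over all genes. Nothing particular to a list is read from its count. In the list of further crypt base stem cell genes 4 of 16 rose and 5 fell, with a median log2 difference of 0.04, level with the median over all genes. The Wnt-driven transcription factor gene Sp5 changed by -0.74 ± 0.09 (adjusted p = 2.08e-05) and the water channel Aqp4 by -1.04 ± 0.17 (adjusted p = 0.000257). Mecom, a transcription factor, rose by 1.74 ± 0.30 (adjusted p = 0.000372) and Igfbp4, which binds insulin-like growth factors, by 1.19 ± 0.15 (adjusted p = 2.86e-05).

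In the list of reserve and early-progenitor genes 3 of 12 rose and 2 fell (median 0.21). Krt19, a keratin of simple epithelium, rose by 0.70 ± 0.08 and Msi2, the paralog of Msi1, by 0.43 ± 0.07. Hopx, a homeodomain-only protein used to mark the reserve stem cell, changed by -0.55 ± 0.08, and Tert, the catalytic subunit of telomerase, by -0.26 ± 0.08 (adjusted p between 1.64e-05 and 0.0174 for these 4). Among transit-amplifying and cell cycle genes 7 of 19 rose and 0 fell (median 0.26), led by the mitotic kinase Plk1 (0.54 ± 0.14, adjusted p = 0.00616) and cyclin Ccna2 (0.50 ± 0.13, adjusted p = 0.0102).

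Among genes of Wnt and Notch upkeep 5 of 19 rose and 4 fell (median 0.04). Cyclin Ccnd1 rose by 1.02 ± 0.15 (adjusted p = 0.000131) and the Notch target Hes1 by 0.74 ± 0.14 (adjusted p = 0.000884), while the Notch ligands Dll1 (-1.01 ± 0.24, adjusted p = 0.00521) and Dll4 (-0.46 ± 0.11, adjusted p = 0.00577) fell. Jag1, another Notch ligand of the list, named here after its values were seen, rose by 0.62 ± 0.09 (adjusted p = 9.05e-05). Of the gastric gland stem and progenitor genes 3 of 11 rose and 2 fell (median 0.15). The water channel Aqp5, found in gland base cells of the stomach antrum and in Brunner glands, rose by 3.47 ± 0.37 (adjusted p = 7.88e-06) and Runx1, a transcription factor active in stomach gland progenitors, by 1.94 ± 0.20 (adjusted p = 6.74e-06). Rgs2, a regulator of G protein signalling, changed by -0.81 ± 0.19 (adjusted p = 0.00413) and Axin2, a feedback inhibitor of Wnt signalling that 2 of the lists hold, by -0.60 ± 0.12 (adjusted p = 0.00144). Against wildtype the same 5 lists had 3 higher and 3 lower of 16, 3 and 1 of 12, 1 and 0 of 19, 4 and 1 of 19, and 2 and 1 of 11, and 0 genes passed between adjacent tissue and wildtype.

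**Figure D4:**
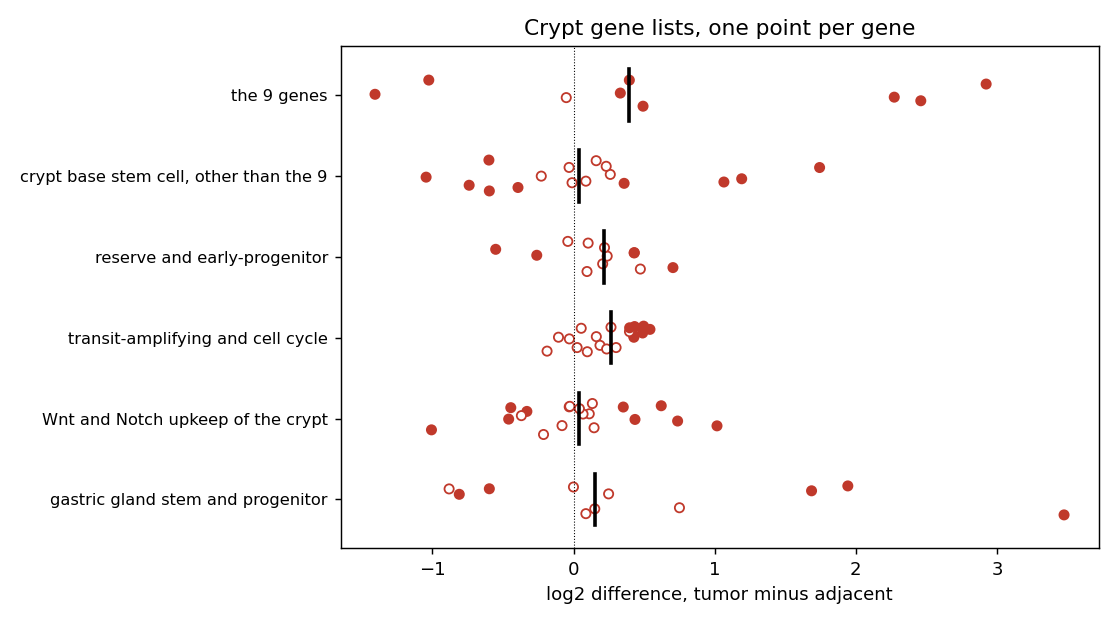
Log2 difference of tumor minus adjacent tissue (x axis) for each gene of the 9 and of 5 lists of crypt and gland genes. Each point is a gene, filled where the adjusted p was below 0.05, with vertical scatter for legibility, and the black bar is the list's median. Called genes lie on both sides of 0 in every list but that of the cell cycle, whose 7 called genes lie between 0.40 and 0.54.

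Genes of other cell types were counted in the same comparison, again beside 19.1% higher and 12.6% lower over all genes. Enterocyte genes fell in 14 of 15, with a list mean of 10.6 to 11.1 in tumors and 12.9 to 13.6 in adjacent tissue. Paneth cell genes, whose cells sit between the crypt base stem cells, fell in 3 of 8 (list mean 9.45 to 11.2 in tumors, 10.3 to 11.6 in adjacent tissue), with Lyz1 at -2.57 ± 0.60 (adjusted p = 0.00387). Enteroendocrine genes fell in 5 of 9, but Chga (-0.72 ± 0.26, adjusted p = 0.0516) and Chgb (-0.10 ± 0.20, adjusted p = 0.787) did not pass. Goblet genes rose in 4 of 7 with 1 lower, but Muc2 (-0.47 ± 0.21, adjusted p = 0.112) and Tff3 (-0.265 ± 0.14, adjusted p = 0.185) did not pass. T and NK cell genes fell in 10 of 10, macrophage and dendritic cell genes in 7 of 9 with 1 higher, and B and plasma cell genes in 3 of 7, while mast cell genes rose in 7 of 10. Smooth muscle genes passed in 0 of 8, and 1 of 10 acinar genes fell. The part of these shifts in the values of Lgr5, Olfm4 and the genes that rose was not tested.

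The likeness of a gene's profile to that of each member was measured as the root mean square difference over the 14 arrays, after each gene was centred on its own mean. A small value can come from shared group differences alone. Nearest to Lgr5 were the tetraspanin Tspan5 (0.20, where the root mean square deviation of Lgr5 itself was 0.74) and the glutathione transferase Gstm3 (0.21). Nearest to Olfm4 (own deviation 0.54) were Ssx2ip and Osgin1, at 0.20 and 0.21. Nearest to Sox9 (own deviation 1.105) were Dnajc10, a disulfide reductase of the endoplasmic reticulum, at 0.19 and the peptidoglycan-binding protein Pglyrp1 at 0.22.

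For Prom1 (own deviation 1.30) they were Ankrd22 at 0.29 and the fatty acid desaturase Scd2 at 0.30, and for Cd44 (own deviation 1.43) lactoferrin Ltf at 0.26 and Ripply3 at 0.27. The neighbours were chosen on these same arrays, so their log2 differences of tumor minus adjacent tissue, from -1.46 for Tspan5 to 2.84 for Ripply3, follow from the choice. The members with small differences had near neighbours at 0.092 to 0.177, against own deviations of 0.247 to 0.359: Grk3 and Tmem67 for Ascl2, the signalling inhibitor Spry2 and prosaposin (Psap) for Smoc2, and Tasor and Ttc32 for Bmi1. Among the members themselves Ascl2 and Bmi1 lay closest at 0.21, against own deviations of 0.359 and 0.247, and Lgr5 and Olfm4 lay 0.36 apart. Prom1, Sox9 and Cd44 lay 0.409 to 0.423 from each other, against own deviations of 1.105 to 1.43. The measure is not scaled to a gene's own deviation, so it does not rank these pairs by likeness of shape.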

How the data were processed

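Per the labels, RNA of 6 duodenal tumors, 5 adjacent and 3 wildtype samples (14 arrays, 9 mice) was run on Affymetrix Mouse Gene 1.0 ST arrays. The authors deposited log2 signal for 35556 transcript clusters, a unit read from the values (2.87 to 14.8). Per the submitters' processing notes, Affymetrix Expression Console 1.1 and the mm9 build were used; background correction, normalization and filters were not given in the sources used here, and no detection call accompanies the values. Array medians were 7.11 to 7.29. The number of arrays limits the precision.

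A single symbol was given to 21789 clusters, several to 1621 and none to 12146. Symbols were updated by gene identifier (GRCm38.p6 table, names only), and the brightest cluster per gene was kept, leaving 19938 genes. limma 3.58.1 in R 4.3.3 fitted group means on all 14 arrays with mouse as a random block (correlation 0.334), two-sided, with Benjamini-Hochberg adjustment over all genes; a fitted difference can depart from the difference of raw means because of the block. Pairing comes from the mouse ID in the labels. Deviations from group means correlated at r = 0.225 on average between tissues of the same mouse, positive in 4 of 5 pairs (over genes, which are not independent). The fit was tested on simulated data in which a gene had the same spread in every group. That test does not cover groups of unequal spread. Mice are separate animals, and the p-values rest on a spread per gene that all 14 arrays share. They do not measure the spread of the compared groups alone. For tumor against adjacent tissue they also draw on differences within the paired mice.

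The 9 members and the 20 lists (219 entries, 208 in the table) were chosen with earlier results of these data known. Named are all members, Lrig1, from each crypt list up to 2 raised and 2 lowered genes with the largest called difference, up to 2 genes of a marker list, and the 2 nearest profiles of each member that passed a test. Alternatives changed the block, scaling, filter, weights, array set, mouse ID letter and fold threshold.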

Additional observations from a re-analysis of the deposited data

Results flagged for a closer look

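In groups of 5 or 6 arrays, 18 sets of values of the 9 genes were checked for an array far from the rest, and 2 stood out. Chance gives about 1 in 20. Ascl2 was 7.85 in adjacent replicate 2, the lowest of the 5 adjacent arrays, which otherwise ran from 8.26 to 8.43. Msi1 was 7.40 in tumor replicate 1, the lowest of the 6 tumors, which otherwise ran from 7.808 to 7.997. Without adjacent replicate 2 the Ascl2 difference between tumor and adjacent tissue was 0.39 ± 0.15 (adjusted p = 0.0703), and without tumor replicate 1 that of Msi1 was 0.002 ± 0.084 (adjusted p = 0.988).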

How the results depend on the processing

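Of 252 values of the 9 genes in tumor against adjacent tissue under alternative settings, 220 kept direction and call, 28 lost the call and 4 changed sign; against wildtype 215 of 243 kept both, 16 lost and 7 gained the call and 5 changed sign; between adjacent tissue and wildtype 221 of 243 kept both and 22 changed sign. Cd44, Prom1 and Sox9 passed in 28 of 28 alternatives against adjacent tissue. The cause was not tested for any change below. Few arrays, above all 3 wildtype, limit the small differences.

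Tumor against adjacent, 8 of 9 genes passed: 3 within mouse ID letter F, 5 with a 2-fold change as well, 6 to 8 leaving out 1 array. Of all genes 6313 passed: 2181 against non-tumor arrays with acinar transcripts, 1719 within letter F, 1271 at 2-fold, 5232 to 6475 leaving out 1 array. With mouse as a fixed replicate block over 5 pairs the differences were -1.44 for Lgr5, -1.02 for Olfm4, 2.47 for Prom1, 2.37 for Sox9 and 2.97 for Cd44, with the same 8 calls, and Msi1 turned to 0.002.

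Tumor against wildtype, 5 genes passed: 2 against arrays with acinar transcripts, 0 within letter F (1 wildtype array, assumed to vary like the other groups), 3 at 2-fold, 4 to 6 leaving out 1 array. Of all genes 2817 passed: 9525 with array weights, 504 against arrays with acinar transcripts, 14 within letter F, 778 at 2-fold, and 4526, 940 and 1090 without wildtype replicate 1, 2 and 3. Adjacent against wildtype, 0 of all genes passed: 1 with quantile normalization, equal medians, trend and robust moderation or the filter at 6, 1691 with array weights, 73 within letter F (again 1 wildtype array), 0 to 1 leaving out 1 array.

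Sign changes, none with a call, were as follows. Against adjacent tissue Msi1 was 0.12 with acinar arrays, 0.056 within letter F and -0.10 to 0.002 leaving out 1 array. Against wildtype Lgr5 was 0.032 and Bmi1 -0.071 within letter F, and Msi1 0.099 within letter B and -0.10 to 0.045 leaving out 1 array. Between adjacent tissue and wildtype, letter B gave 0.17 (Ascl2), 0.15 (Prom1), 0.004 (Sox9), 0.061 (Cd44) and 0.066 (Bmi1), arrays without acinar transcripts -0.004 (Smoc2), 0.041 (Prom1), 0.19 (Cd44) and 0.020 (Bmi1), array weights 0.27 (Prom1), 0.17 (Cd44) and 0.058 (Bmi1), and Msi1 was -0.14 with acinar arrays and -0.28 within letter F. Leaving out 1 array gave -0.33 to 0.020 (Ascl2), -0.007 to 0.20 (Smoc2), -0.60 to 0.47 (Prom1), -0.86 to 0.10 (Cd44), -0.049 to 0.070 (Msi1) and -0.19 to 0.099 (Bmi1).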
